A study of Mus musculus with 18 samples.

Results

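The genes described here encode ATP-binding cassette (ABC) proteins of the mouse, apart from Abca3, as measured in lung epithelial cells that were sorted by the activity of a Wnt reporter. A gene was taken where its symbol on the array platform was Abca, Abcb, Abcc, Abcd, Abce, Abcf or Abcg followed by digits and an optional letter, with Abca3 and pseudogenes left out. This gave 47 genes of the 30142 genes that had a probe set with 1 symbol. They comprised 15 genes of subfamily A, 9 of B, 10 of C, 3 of D, 1 of E, 3 of F and 6 of G, each with 1 probe set.

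The cells came from TCF/Lef:H2B/GFP mice aged 8 to 12 weeks, in which TCF/Lef binding sites drive a histone H2B fused to green fluorescent protein. The tissue label is distal lung, whereas the dissociation protocol names whole lungs with trachea and bronchi. After dispase digestion, CD31 and CD45 cells were depleted on beads, EpCAM cells were enriched on beads, and live EpCAM-positive cells were sorted into GFPhigh (Wnthigh), GFPlow (Wntlow) and GFPneg (Wntnegative) fractions. All 3 groups share the reporter allele, and none was given a treatment. Each array was made from 8 ng of RNA of a pool of 3 to 4 animals, and there were 6 arrays in each group, named by an experiment number. Wnthigh arrays came from experiments 2, 4, 5, 7, 8 and 9, and the arrays of both other groups from experiments 3, 4, 5, 7, 8 and 9. The labels do not say whether pools of different experiments shared animals, so the p-values measure the spread between these pools. The H2B fusion is a stable protein, so GFP marks past as well as present reporter activity, and a pool reads the average of its cells. In such bulk RNA, fewer cells of a type and less RNA per cell cannot be told apart.

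ABC proteins use the hydrolysis of ATP to move substrates across membranes. Members of subfamily A mostly move lipids, those of B move drugs, peptides, haem precursors or iron compounds, and those of C (the multidrug resistance proteins and the sulfonylurea receptors) move organic anions and conjugates or regulate channels. Members of D serve peroxisomes and lysosomes, those of E and F act on ribosomes and are not transporters, and those of G move sterols and drugs. In the lung the family is best known for Abca3, which loads surfactant lipid into the lamellar bodies of alveolar type II cells, and for the chloride channel Cftr.

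The values are log2 intensities. The arrays fall into 2 sets by the number of decimals in the deposited values, which are called runs here, although the labels name no runs. The median of all probe sets lay between 4.62 and 4.77 on the 9 arrays of experiments 2 to 5 and between 3.55 and 3.69 on the 9 arrays of experiments 7 to 9. Each run held 3 arrays of every group, so the groups were compared with run as a term in 1 limma fit over all genes, and the difference within each run is given beside the pooled one. A level was called at background where the mean of a group lay below the 95th percentile of 23 background control probe sets of that run, which was 5.21 (log2) for experiments 2 to 5 and 4.96 for experiments 7 to 9. Levels of different genes are not set against each other, because each probe set has its own response.

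Marker genes of the cell types that a sort could hold were read in every group. All 4 epithelial markers measured were above background on average in every group and run. All measured markers of endothelium (5), leukocytes (5), fibroblasts and pericytes (5) and smooth muscle (3) were at background in every group and run, and so were 4 of 6 macrophage markers in experiments 2 to 5 and 5 of 6 in experiments 7 to 9. The 6 ciliated cell markers had array means of 14.9 to 15.3 in Wnthigh, 9.55 to 14.1 in Wntlow and 4.40 to 7.33 in Wntnegative. The 5 goblet cell markers had array means of 6.65 to 10.5 in Wnthigh, 11.5 to 13.3 in Wntlow and 4.24 to 5.49 in Wntnegative. The 7 alveolar type II markers had array means of 10.5 to 16.4 in Wnthigh, 14.0 to 17.5 in Wntlow and 17.8 to 18.7 in Wntnegative. Of the 5 type I cell markers 1 rose and 4 fell in Wnthigh against Wntnegative, and all 5 club cell markers rose in Wnthigh and in Wntlow. The part of these marker differences in the results on ABC genes was not tested.

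Of the 47 ABC genes, 18 were above background in at least 1 group in each run, 2 (Abca5 and Abcb9) in experiments 2 to 5 alone, and 27 were at background in every group and both runs. Over all 30142 genes, 12290 were above background in at least 1 group in each run. No ABC gene lay above the 99th percentile of all genes of its run. The 18 ABC genes above background were Abca1, Abca2, Abca7 and Abca17 of subfamily A, Abcb6, Abcb8 and Abcb10 of B, Abcc1, Abcc3, Abcc4, Abcc5 and Abcc10 of C, Abcd3 and Abcd4 of D, Abce1, and Abcf1, Abcf2 and Abcf3. No gene of subfamily G was among them.

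**Figure D1:**
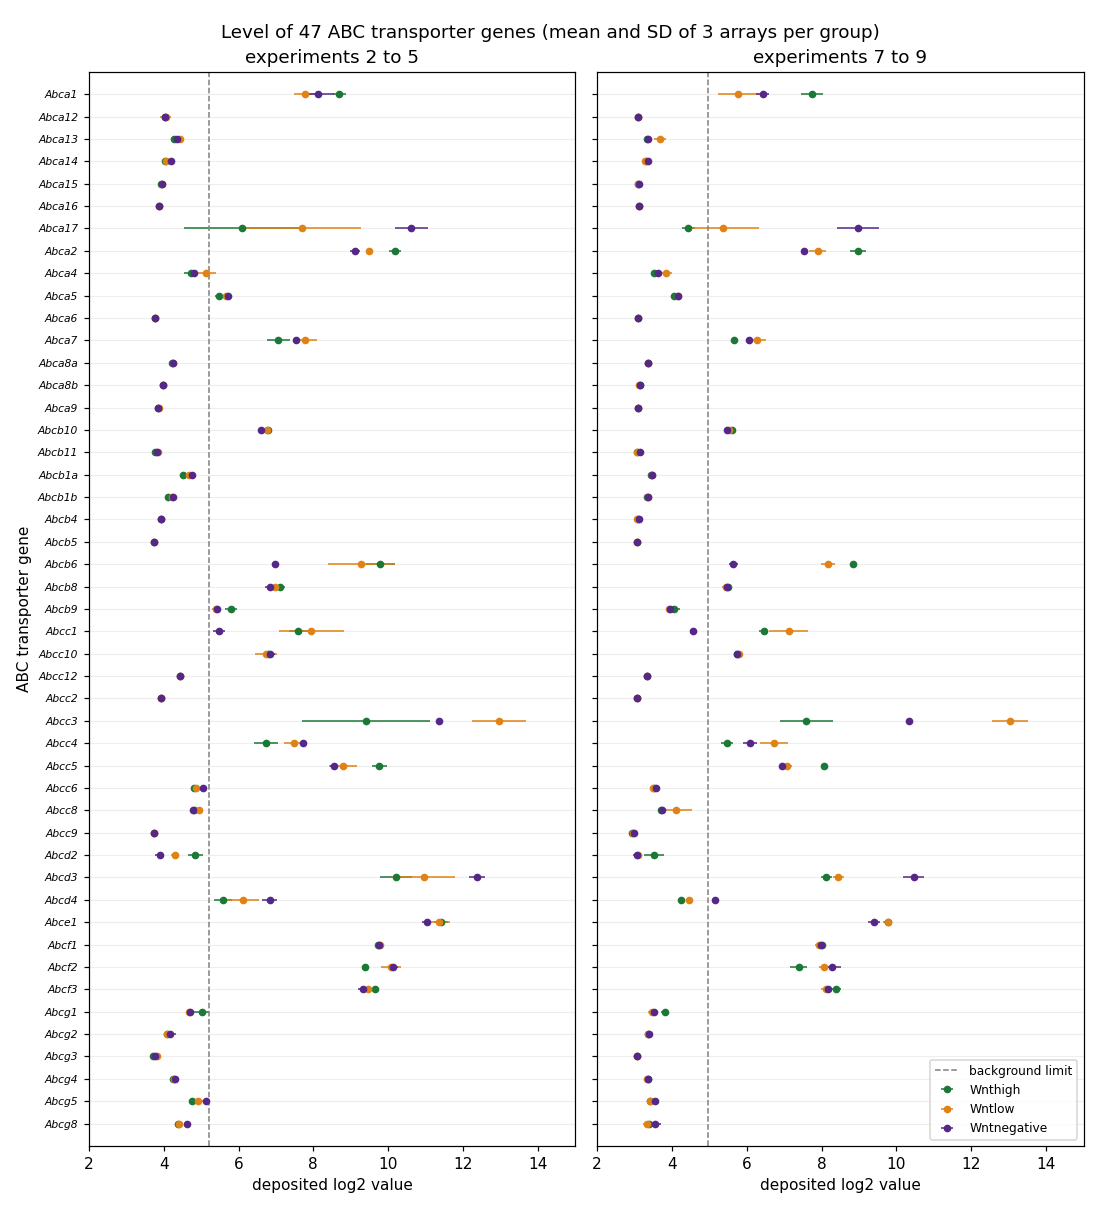
Mean deposited log2 value of each of the 47 ABC genes in Wnthigh, Wntlow and Wntnegative cells, with the SD of 3 arrays as a bar, in experiments 2 to 5 (left) and 7 to 9 (right). The dashed line is the background limit (5.21 and 4.96), and 27 genes lie to its left in every group of both runs.

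Between Wnthigh and Wntnegative cells, 12 ABC genes were higher in Wnthigh and 14 lower at an adjusted p under 0.05 (limma, Benjamini-Hochberg over all 30142 genes). That was 55.3% of the 47 genes, against 40.3% of all genes called in either direction (15.7% higher and 24.6% lower). Of these 26 calls, 8 (2 higher, 6 lower) concerned genes at background in all groups. The median difference of the 47 genes was -0.01, against -0.05 for all genes. Between Wntlow and Wntnegative cells, 7 ABC genes were higher in Wntlow and 7 lower, which was 29.8% of the 47, against 25.5% of all genes (12.3% higher and 13.2% lower). With the experiment as a fixed block the count of lower genes was 4, against 13.6% of all genes. Between Wnthigh and Wntlow cells, 7 were higher in Wnthigh and 9 lower, which was 34.0%, against 27.9% of all genes (11.4% higher and 16.4% lower). Quantile normalization over all arrays turned this last split into 8 higher and 6 lower, against 13.3% and 14.6% of all genes.

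The arrays of Wnthigh and Wntnegative did not overlap in either run for 19 of the 47 genes, against 30.7% of all genes. The same held for 11 genes between Wntlow and Wntnegative, against 15.6% of all genes, and for 13 between Wnthigh and Wntlow, against 18.6%. A called difference of at least 1 on the log2 scale was reached by 8, 5 and 3 of the 47 genes in these comparisons, against 13.9%, 7.65% and 9.1% of all genes. Without run as a term, 10 of the 56 calls remained: those of Abca17, Abcb6 and Abcc1 against Wntnegative in both other groups, all 3 of Abcc3, and that of Abcd3 between Wnthigh and Wntnegative.

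**Figure D2:**
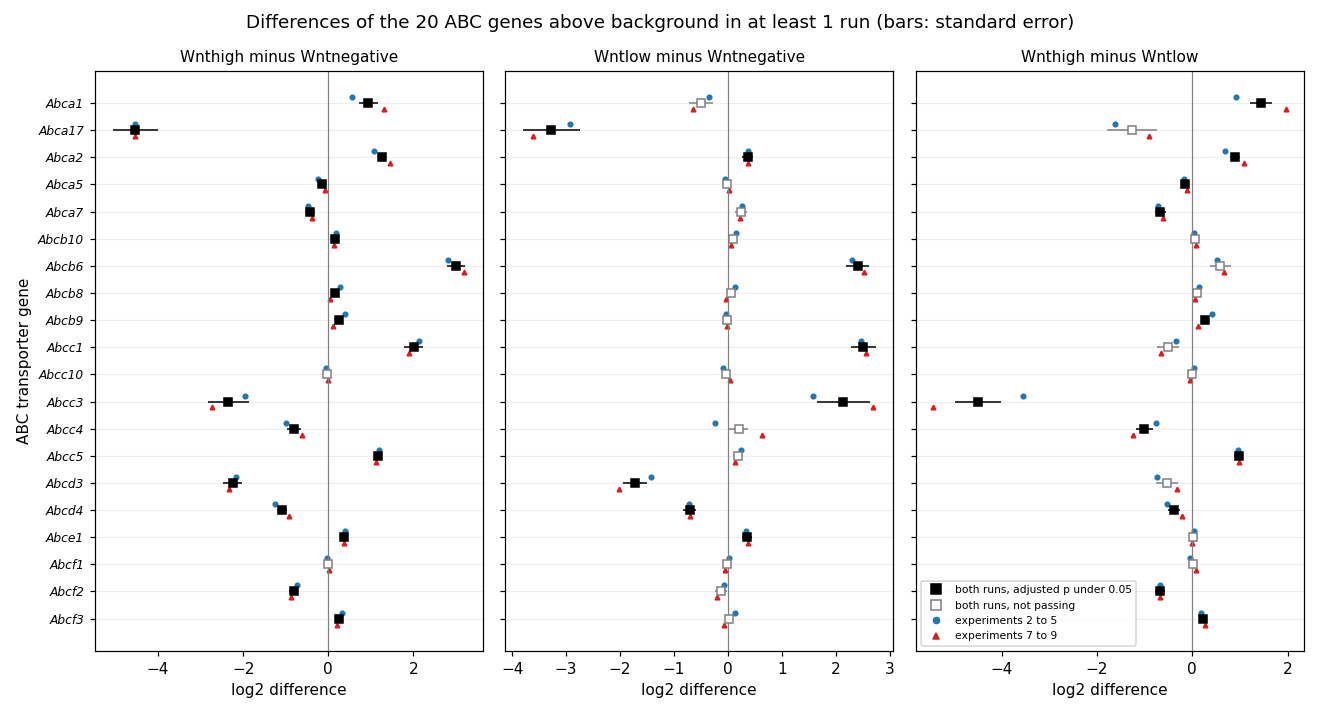
Log2 difference of the 20 ABC genes above background in at least 1 run, for each pair of groups; squares are the fit over both runs with its standard error (filled where the adjusted p is under 0.05), circles and triangles the differences within experiments 2 to 5 and 7 to 9. Abca17 reached -4.54 in Wnthigh minus Wntnegative, Abcb6 3.00, and Abcc3 -4.49 in Wnthigh minus Wntlow.

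Among the multidrug resistance proteins of subfamily C, Abcc3 and Abcc1 had the widest differences, and they ran in different orders. Abcc3, a basolateral exporter of glucuronides and bile salts, was highest in Wntlow and lowest in Wnthigh, a 22.5-fold difference. Abcc1, an exporter of glutathione conjugates and leukotriene C4, was at least 4.03-fold higher in Wnthigh and at least 5.72-fold higher in Wntlow than in Wntnegative. Abcc5 was 2.23-fold higher in Wnthigh than in Wntnegative, and Abcc4 1.75-fold lower.

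In experiments 2 to 5, listed in the order of the experiment number here and throughout, Abcc3 read 7.53, 10.87 and 9.81 in Wnthigh, 12.76, 12.35 and 13.76 in Wntlow and 11.37, 11.37 and 11.37 in Wntnegative. It read 6.99, 7.44 and 8.36 in Wnthigh, 13.40, 12.49 and 13.19 in Wntlow and 10.31, 10.34 and 10.34 in Wntnegative in experiments 7 to 9. All 6 Wntlow arrays were above all Wntnegative arrays, which were above all Wnthigh arrays of their run. The Wntnegative arrays of experiments 3, 4 and 5 carried the identical deposited value 11.3688, so that group had no spread in that run. Against Wntnegative, Abcc3 fell by 2.35 in Wnthigh (SE 0.49, adjusted p = 0.000835) and rose by 2.14 in Wntlow (SE 0.49, adjusted p = 0.00352). These differences were -1.97 and 1.59 in experiments 2 to 5, where neither passed alone (adjusted p = 0.109 and 0.266), and -2.73 and 2.70 in experiments 7 to 9. Against Wntlow, Abcc3 fell by 4.49 in Wnthigh (SE 0.49, adjusted p = 6.26e-06). It fell by 5.10 without experiment 4, whose Wnthigh array had the highest Abcc3 value of that group.

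Abcc1 read 7.31, 7.72 and 7.77 in Wnthigh, 8.24, 6.98 and 8.63 in Wntlow and 5.52, 5.30 and 5.61 in Wntnegative in experiments 2 to 5. It read 6.39, 6.58 and 6.39 in Wnthigh, 7.72, 6.81 and 6.82 in Wntlow and 4.48, 4.57 and 4.62 in Wntnegative in experiments 7 to 9. Every Wnthigh and Wntlow array was above every Wntnegative array of its run, while the Wnthigh and Wntlow arrays overlapped in experiments 2 to 5. Wntnegative was at background in experiments 7 to 9, so the differences from it are lower limits. Abcc1 rose by 2.01 in Wnthigh (SE 0.22, adjusted p = 1.73e-06) and by 2.52 in Wntlow (SE 0.22, adjusted p = 1.46e-06). Wnthigh minus Wntlow was -0.51 (SE 0.22, adjusted p = 0.115) and did not pass.

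Abcc5, an exporter of organic anions and cyclic nucleotides, read 9.84, 9.54 and 9.91 in Wnthigh, 9.01, 8.37 and 9.01 in Wntlow and 8.55, 8.68 and 8.47 in Wntnegative in experiments 2 to 5. It read 8.11, 8.10 and 7.96 in Wnthigh, 7.17, 7.12 and 6.94 in Wntlow and 6.98, 6.86 and 6.97 in Wntnegative in experiments 7 to 9. The Wnthigh arrays were above all others of their run, and Wntlow and Wntnegative overlapped. Abcc5 rose by 1.16 in Wnthigh against Wntnegative (SE 0.10, adjusted p = 9.35e-08) and by 0.97 against Wntlow (SE 0.10, adjusted p = 4.14e-06). Wntlow minus Wntnegative was 0.19 (SE 0.10, adjusted p = 0.19).

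Abcc4, an exporter of cyclic nucleotides and prostaglandins, read 6.58, 7.09 and 6.52 in Wnthigh, 7.27, 7.77 and 7.41 in Wntlow and 7.80, 7.70 and 7.66 in Wntnegative in experiments 2 to 5. It read 5.45, 5.65 and 5.31 in Wnthigh, 6.56, 7.15 and 6.46 in Wntlow and 5.88, 6.14 and 6.25 in Wntnegative in experiments 7 to 9. The Wnthigh arrays were the lowest in both runs, and the order of the other groups turned between the runs. Abcc4 fell by 0.80 in Wnthigh against Wntnegative (SE 0.17, adjusted p = 0.000989) and fell by 1.003 against Wntlow (SE 0.17, adjusted p = 0.000222). Wnthigh minus Wntnegative did not pass in experiments 7 to 9 alone (limma, -0.62, adjusted p = 0.0565). Wntlow minus Wntnegative was -0.23 in experiments 2 to 5 and 0.63 in experiments 7 to 9. Abcc10, an organic anion exporter whose RefSeq model overlaps Dlk2, differed by -0.03, -0.03 and -0.01 in Wnthigh minus Wntnegative, Wntlow minus Wntnegative and Wnthigh minus Wntlow, and passed in none. It carried the same deposited value on 7 of the 9 arrays of experiments 7 to 9.

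**Figure D3:**
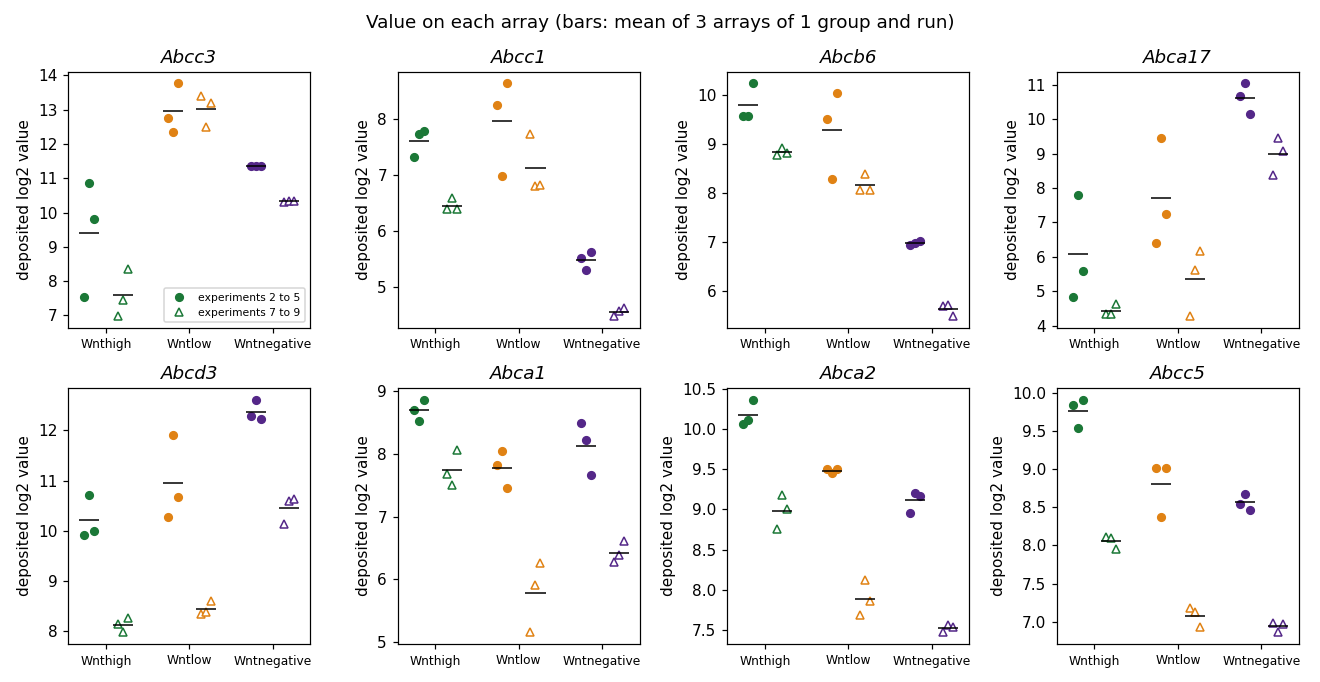
Deposited log2 value of 8 ABC genes on each of the 18 arrays (filled circles, experiments 2 to 5; open triangles, experiments 7 to 9), with a bar at the mean of the 3 arrays of a group and run. The vertical scales differ between genes; Abcc3 is highest in Wntlow, Abcc1 and Abcb6 are lowest in Wntnegative, and Abca17 and Abcd3 are highest in Wntnegative.

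The other genes of the conjugate export route were described from a list of glutathione supply genes, of which 6 of 8 were measured. In Wnthigh against Wntnegative 1 rose and 2 fell, in Wntlow against Wntnegative 4 rose and 2 fell, and between Wnthigh and Wntlow 4 were lower in Wnthigh and 0 higher (limma; also 0 at an unadjusted p under 0.05). Their medians were 0.20, 0.72 and -0.52 in Wnthigh minus Wntnegative, Wntlow minus Wntnegative and Wnthigh minus Wntlow, against -0.05, -0.03 and -0.01 for all genes, which holds for each list that follows. Gsr, the reductase that regenerates glutathione, was 5.12-fold higher in Wnthigh (2.36, SE 0.24, adjusted p = 7.17e-07) and 4.05-fold higher in Wntlow (2.02, SE 0.24, adjusted p = 2.26e-05) than in Wntnegative. Gclc, the catalytic subunit of the rate-limiting enzyme of glutathione synthesis, fell by 1.64 in Wnthigh and fell by 0.98 in Wntlow. Gss, glutathione synthetase, rose by 1.47 in Wntlow (adjusted p = 8.28e-05).

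Of 12 carriers of drugs and organic ions from the SLC families, 0 rose and 5 fell in Wnthigh against Wntnegative (limma; 2 were higher at an unadjusted p under 0.05), and 3 rose and 2 fell in Wntlow. Between Wnthigh and Wntlow 6 were lower in Wnthigh and 0 higher (also 0 at an unadjusted p under 0.05). The medians of these carriers in the 3 comparisons, in the same order, were -0.03, -0.01 and -0.68. Slco4c1, an organic anion carrier, read 9.38 ± 2.02 in Wnthigh, 12.84 ± 1.001 in Wntlow and 14.91 ± 0.30 in Wntnegative (SD, n = 6). The prostaglandin carrier Slco2a1 fell by 5.39 in Wnthigh, a lower limit, and fell by 2.71 in Wntlow against Wntnegative. Slco1a5 rose by at least 2.93 in Wntlow, as did Slc22a18 by 2.13, and in Wnthigh minus Wntlow these carriers differed by -2.22 and -1.67. Slco1a5 and Slc22a18 had their highest group mean in Wntlow, as Abcc3 and both the goblet and the club cell markers did. Between Wnthigh and Wntlow, 3 of the 5 club cell markers passed, all lower in Wnthigh.

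Of 9 xenobiotic and bile acid receptors, 3 rose and 0 fell in Wnthigh against Wntnegative (limma; also 0 at an unadjusted p under 0.05), and 5 rose and 1 fell in Wntlow. Between Wnthigh and Wntlow 3 were higher and 1 lower in Wnthigh, and the medians were 0.02, 0.10 and 0.00. The pregnane X receptor Nr1i2 was at least 7.7-fold higher in Wnthigh than in Wntnegative, where it was at background (adjusted p = 1.90e-08). The aryl hydrocarbon receptor Ahr was 5.52-fold higher in Wntlow than in Wntnegative (adjusted p = 3.47e-05) and differed by 0.02 between Wnthigh and Wntnegative (adjusted p = 0.963). Nfe2l2, the activator of antioxidant response genes, differed by -0.01 and -0.04 in Wnthigh and Wntlow against Wntnegative and did not pass.

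In subfamily B the mitochondrial and related transporters were the members above background. Abcb6, which carries porphyrins, was 8-fold higher in Wnthigh and 5.32-fold higher in Wntlow than in Wntnegative. It read 9.56, 9.58 and 10.23 in Wnthigh, 9.50, 8.29 and 10.04 in Wntlow and 6.95, 6.98 and 7.02 in Wntnegative in experiments 2 to 5. It read 8.77, 8.91 and 8.80 in Wnthigh, 8.05, 8.39 and 8.05 in Wntlow and 5.71, 5.71 and 5.49 in Wntnegative in experiments 7 to 9. All Wntnegative arrays lay below all others of their run, and the Wntlow array of experiment 4 was the lowest of its group in that run. Abcb6 rose by 3.00 in Wnthigh (SE 0.21, adjusted p = 1.55e-08) and by 2.41 in Wntlow (SE 0.21, adjusted p = 1.46e-06). Wnthigh minus Wntlow was 0.59 (SE 0.21, adjusted p = 0.0518) and did not pass. By run it was 0.51 in experiments 2 to 5, with overlapping arrays (limma, adjusted p = 0.517). In experiments 7 to 9 it was 0.66, without overlap (limma, adjusted p = 0.0036).

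Abcb10, an inner membrane protein of mitochondria needed for haem synthesis, rose by 0.15 in Wnthigh against Wntnegative (SE 0.04, adjusted p = 0.00595), with overlapping arrays in experiments 7 to 9. Abcb8, another inner membrane protein whose RefSeq model overlaps Cdk5, carried the same deposited value on 5 of the 9 arrays of each run. It rose by 0.16 in Wnthigh against Wntnegative (SE 0.06, adjusted p = 0.0407), with overlap in both runs. This call did not pass without 5 of the 7 experiments left out in turn (adjusted p up to 0.116), on experiments 7 to 9 alone (0.03, adjusted p = 0.746) or with the experiment as a fixed block (0.11, adjusted p = 0.155). The lysosomal peptide transporter Abcb9, above background in experiments 2 to 5 alone, rose by 0.25 in Wnthigh against Wntnegative (adjusted p = 0.00946) and by 0.27 against Wntlow (adjusted p = 0.0075).

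Among genes of mitochondrial iron-sulfur and haem handling, 10 of 11 listed were measured. In Wnthigh against Wntnegative 5 rose and 2 fell, and in Wntlow against Wntnegative 4 rose and 0 fell (limma; also 0 at an unadjusted p under 0.05). Between Wnthigh and Wntlow 2 were higher and 3 lower in Wnthigh, and the medians were 0.24, 0.17 and -0.03. Alas1, the first enzyme of haem synthesis, was 11.9-fold higher in Wnthigh and 12.3-fold higher in Wntlow than in Wntnegative (adjusted p = 3.31e-08 and 3.32e-07). Slc25a37, mitoferrin 1, which brings iron into mitochondria, was at background in Wntnegative and at least 15.4-fold higher in Wnthigh and at least 15.6-fold higher in Wntlow. Fech, the last enzyme of haem synthesis, differed by 0.08 and 0.07 and did not pass. Abcb6, Alas1 and Slc25a37 were lowest in Wntnegative, and so were the ciliated and club cell markers, all 6 and all 5 of which rose in both other groups.

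The drug exporters Abcb1a and Abcb1b, which encode P-glycoprotein, and Abcg2, the breast cancer resistance protein, were at background in every group and run. In experiments 2 to 5 Abcb1a read 4.51, 4.51 and 4.55 in Wnthigh and 4.70, 4.68 and 4.68 in Wntlow. It read 4.77, 4.70 and 4.78 in Wntnegative, and the 3 groups did not overlap in that run. In experiments 7 to 9 it lay between 3.44 and 3.55. It differed by -0.13 in Wnthigh minus Wntnegative (adjusted p = 0.00833), with -0.23 in the first run and -0.03 in the second. It did not pass without experiment 5 (adjusted p = 0.0548) or with the experiment as a fixed block (-0.11, adjusted p = 0.0612). Abcb1b read 4.20, 4.09 and 4.06 in Wnthigh, 4.27, 4.20 and 4.20 in Wntlow and 4.24, 4.24 and 4.27 in Wntnegative in experiments 2 to 5, and between 3.28 and 3.38 in experiments 7 to 9. Its difference in Wnthigh minus Wntnegative was -0.08 (adjusted p = 0.0431), which did not pass without 5 of the 7 experiments left out in turn (adjusted p up to 0.202) or with the experiment as a fixed block (-0.09, adjusted p = 0.0803). Abcb1a and Abcb1b are related neighbouring genes, so any probes shared between them may make their values uncertain. Abcg2 lay between 4.06 and 4.35 in experiments 2 to 5 and between 3.36 and 3.41 in experiments 7 to 9, and was called in no comparison.

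Among the lipid transporters of subfamily A, Abca17 was highest in Wntnegative and Abca1 and Abca2 in Wnthigh. Abca17, whose gene lies head to head with Abca3, was at least 23.2-fold lower in Wnthigh and 9.65-fold lower in Wntlow than in Wntnegative. Abca1, which passes cholesterol and phospholipid to apolipoprotein A1, was 1.92-fold higher in Wnthigh than in Wntnegative and 2.71-fold higher than in Wntlow. Abca2, a sterol transporter of late endosomes and lysosomes, was 2.39-fold higher in Wnthigh than in Wntnegative.

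RefSeq (GRCm38.p6) gives Abca17 on the minus strand and Abca3 on the plus strand of chromosome 17, with gene models that overlap. A region at 1 start of each gene is shown because these neighbours were both highest in Wntnegative; each runs 5′ to 3′ on the strand of its gene, from 250 bases before to 50 bases after the start. The regions are chr17:24351010-24351309 on the minus strand for Abca17 and chr17:24351773-24352072 on the plus strand for Abca3. Capitals mark matches to GTTGCC or its reverse complement GGCAAC, the core letters of the X-box bound by RFX factors.
Abca17: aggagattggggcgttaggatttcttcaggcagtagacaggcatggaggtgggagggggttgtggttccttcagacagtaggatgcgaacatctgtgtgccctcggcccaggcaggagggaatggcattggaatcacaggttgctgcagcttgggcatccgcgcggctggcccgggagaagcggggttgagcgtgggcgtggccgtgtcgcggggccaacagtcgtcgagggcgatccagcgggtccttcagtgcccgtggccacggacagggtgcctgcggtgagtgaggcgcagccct
Abca3: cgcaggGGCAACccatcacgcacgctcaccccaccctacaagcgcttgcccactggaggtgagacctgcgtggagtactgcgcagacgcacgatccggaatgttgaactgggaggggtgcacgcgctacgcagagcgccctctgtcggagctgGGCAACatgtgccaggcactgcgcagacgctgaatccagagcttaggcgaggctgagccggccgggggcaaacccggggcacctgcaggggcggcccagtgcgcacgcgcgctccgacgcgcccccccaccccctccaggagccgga
The letters GTTGCC occurred, on either strand, in 12.5% of 32851 RefSeq start regions of 300 bases. They occurred in 3 of the 44 start regions found for 37 of the ABC genes (Abca8a, Abcb11 and Abcb1a), and not in that of Abca17. The TCF/Lef letters ATCAAAG occurred in 3.73% of all start regions and in 0 of the 44. The liver X receptor element, a direct repeat of GGTCA with 4 bases between, occurred in 0.0457% of all and in 0 of the 44. The antioxidant response core TGACNNNGC occurred in 12.4% of all and in 7 of the 44, those of Abca8b, Abcb1a and Abcc2 and both of Abcc10 and Abcc4. These are matches of letters in 1 window per start and not measured sites.

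Abca17 read 4.85, 7.80 and 5.59 in Wnthigh, 6.40, 9.45 and 7.23 in Wntlow and 10.68, 11.04 and 10.15 in Wntnegative in experiments 2 to 5. It read 4.34, 4.34 and 4.64 in Wnthigh, 4.29, 5.62 and 6.17 in Wntlow and 8.38, 9.46 and 9.09 in Wntnegative in experiments 7 to 9. The Wntnegative arrays were above all others of their run, Wnthigh and Wntlow overlapped, and Wnthigh was at background in experiments 7 to 9. Abca17 fell by 4.54 in Wnthigh (a lower limit, SE 0.53, adjusted p = 2.90e-06) and the runs gave -4.54 and -4.54. It fell by 3.27 in Wntlow (SE 0.53, adjusted p = 0.000261), which did not pass in experiments 2 to 5 alone (adjusted p = 0.109). Abca3 read 12.59 ± 1.27 in Wnthigh, 14.84 ± 0.68 in Wntlow and 16.67 ± 0.30 in Wntnegative (SD, n = 6), near the top of the scale in Wntnegative.

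Among the Wnthigh and among the Wntlow arrays of experiments 2 to 5, the array with the highest type II cell marker mean also had the highest Abca17. In experiments 2, 4 and 5 the Wnthigh arrays had type II marker means of 11.9, 16.4 and 14.3, and the array of experiment 4 also had the highest Abca17, Abcd3, Abcd4 and Abcc3 of these. In experiments 3, 4 and 5 the Wntlow arrays had type II marker means of 15.8, 17.5 and 16.4 and ciliated marker means of 14.1, 10.1 and 13. The Wntlow array of experiment 4, with the highest type II and the lowest ciliated mean, had the highest Abca17, Abcd3 and Abcd4 and the lowest Abcb6, Abcc1, Abcc3 and Abcc5 of its group in that run, so Abcc3 was highest on the array of experiment 4 in Wnthigh and lowest on it in Wntlow. In experiments 7, 8 and 9 the type II marker means were 10.5, 13.0 and 14.5 in Wnthigh and 14.0, 16.3 and 17.1 in Wntlow. In that run Abca17 read 4.34, 4.34 and 4.64 in Wnthigh, at background, and 4.29, 5.62 and 6.17 in Wntlow. Abca3, whose gene overlaps that of Abca17, is itself on the type II marker list. The part of these markers in the values was not tested.

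**Figure D4:**
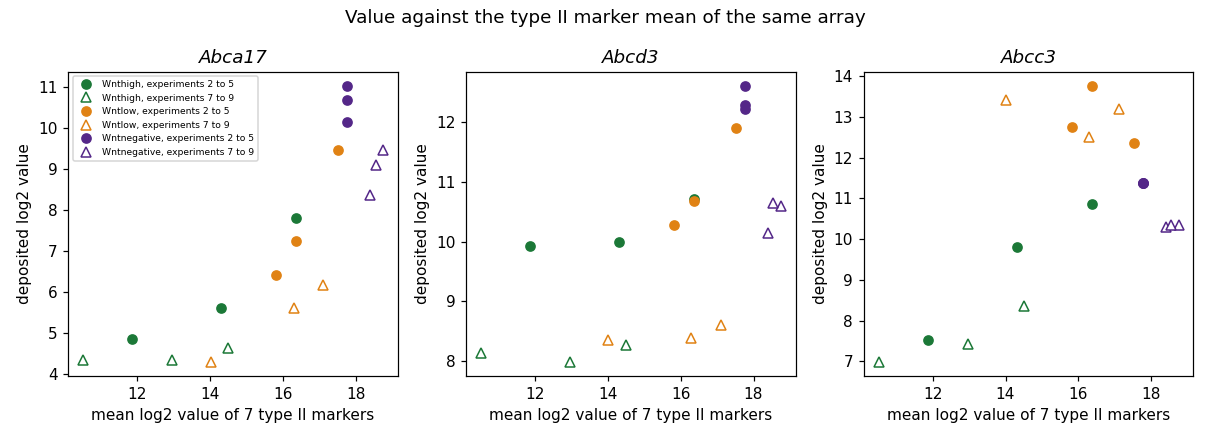
Deposited log2 value of Abca17, Abcd3 and Abcc3 on each of the 18 arrays against the mean log2 value of the 7 type II cell markers on the same array. These markers include Abca3, whose gene overlaps that of Abca17. Wntnegative arrays lie at marker means of 17.8 to 18.7; Wntlow arrays, at 14.0 to 17.5, have the highest Abcc3 values, between 12.35 and 13.76.

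Abca1 read 8.70, 8.51 and 8.86 in Wnthigh, 7.82, 8.04 and 7.46 in Wntlow and 8.49, 8.22 and 7.66 in Wntnegative in experiments 2 to 5. It read 7.67, 7.50 and 8.05 in Wnthigh, 5.16, 5.92 and 6.26 in Wntlow and 6.28, 6.39 and 6.60 in Wntnegative in experiments 7 to 9. The Wnthigh arrays were above all others of their run, and Wntlow and Wntnegative overlapped in experiments 2 to 5. Abca1 rose by 0.94 in Wnthigh against Wntnegative (SE 0.22, adjusted p = 0.0026) and by 1.44 against Wntlow (SE 0.22, adjusted p = 0.000101). The first difference was 0.56 in experiments 2 to 5 and 1.32 in experiments 7 to 9. It did not pass in experiments 2 to 5 alone (limma, adjusted p = 0.117). Wntlow minus Wntnegative was -0.50 (SE 0.22, adjusted p = 0.12).

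Abca2 read 10.06, 10.10 and 10.36 in Wnthigh, 9.50, 9.45 and 9.50 in Wntlow and 8.96, 9.21 and 9.17 in Wntnegative in experiments 2 to 5. It read 8.76, 9.18 and 9.01 in Wnthigh, 7.69, 8.13 and 7.86 in Wntlow and 7.48, 7.56 and 7.54 in Wntnegative in experiments 7 to 9. The 3 groups did not overlap in either run and kept the order Wnthigh, Wntlow, Wntnegative. Abca2 rose by 1.26 in Wnthigh against Wntnegative (SE 0.10, adjusted p = 3.94e-08) and by 0.89 against Wntlow (SE 0.10, adjusted p = 7.36e-06). It rose by 0.37 in Wntlow against Wntnegative (SE 0.10, adjusted p = 0.0111), which did not pass without experiment 3 (adjusted p = 0.0537). This last difference passed in neither run alone (limma, adjusted p = 0.0611 and 0.14).

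Abca7, a phospholipid transporter linked to phagocytosis, read 6.70, 7.25 and 7.23 in Wnthigh, 7.44, 7.93 and 7.99 in Wntlow and 7.49, 7.50 and 7.61 in Wntnegative in experiments 2 to 5. It read 5.68, 5.75 and 5.57 in Wnthigh, 6.47, 6.35 and 6.03 in Wntlow and 6.03, 6.12 and 6.03 in Wntnegative in experiments 7 to 9. The Wnthigh arrays were the lowest in both runs, and Wntlow and Wntnegative overlapped. Abca7 fell in Wnthigh by 0.43 against Wntnegative (SE 0.11, adjusted p = 0.00391) and fell by 0.67 against Wntlow (SE 0.11, adjusted p = 0.00014). Neither difference passed in experiments 2 to 5 alone (limma, adjusted p = 0.111 and 0.0538). Abca5, above background in experiments 2 to 5 alone, fell by 0.16 in Wnthigh against Wntnegative (adjusted p = 0.0133) and fell by 0.14 against Wntlow (adjusted p = 0.0326). The first of these did not pass without experiment 5 (adjusted p = 0.0715), and the second not without experiment 3, 5, 7 or 9 (adjusted p up to 0.086) or with the experiment as a fixed block (adjusted p = 0.0835).

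Abcg1, the partner of Abca1 that passes sterol to high density lipoprotein, was at background in every group and run. It read 5.03, 4.81 and 5.21 in Wnthigh, 4.73, 4.61 and 4.66 in Wntlow and 4.73, 4.67 and 4.71 in Wntnegative in experiments 2 to 5. It read 3.74, 3.92 and 3.75 in Wnthigh, 3.35, 3.54 and 3.54 in Wntlow and 3.54, 3.47 and 3.54 in Wntnegative in experiments 7 to 9. The Wnthigh arrays were above all others of their run. The difference was 0.30 from Wntnegative (SE 0.06, adjusted p = 0.000417) and 0.34 from Wntlow (SE 0.06, adjusted p = 0.000221).

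Of 13 sterol efflux partners, 10 were measured, and in each of Wnthigh and Wntlow against Wntnegative 2 rose and 7 fell. Between Wnthigh and Wntlow 2 were higher and 2 lower in Wnthigh, and the medians were -0.97, -0.87 and -0.33. Pltp, the phospholipid transfer protein, read 14.82 ± 0.32 in Wnthigh, 11.10 ± 1.97 in Wntlow and 5.79 ± 1.03 in Wntnegative (SD, n = 6), where it was at background in experiments 7 to 9. Mylip, the ligase that degrades the LDL receptor, rose by 1.57 in Wnthigh and 1.97 in Wntlow. Npc1 and Npc2, which release cholesterol from lysosomes, differed by -3.37 and -2.89 in Wnthigh minus Wntnegative, and both passed. Apoe fell by 2.79, and Nr1h3, the liver X receptor alpha that activates Abca1, fell by 1.19 (adjusted p = 3.20e-06). Abca1 and Nr1h3 differed in opposite directions between Wnthigh and Wntnegative.

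In subfamily D, Abcd3 and Abcd4 were highest in Wntnegative. Abcd3, which imports branched and long-chain fatty acyl-CoA and bile acid precursors into peroxisomes, was 4.76-fold lower in Wnthigh and 3.29-fold lower in Wntlow. Abcd4, a lysosomal protein of vitamin B12 export, was at least 2.13-fold lower in Wnthigh and at least 1.64-fold lower in Wntlow.

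Abcd3 read 9.93, 10.71 and 9.996 in Wnthigh, 10.28, 11.90 and 10.68 in Wntlow and 12.29, 12.61 and 12.22 in Wntnegative in experiments 2 to 5. It read 8.14, 7.98 and 8.26 in Wnthigh, 8.35, 8.38 and 8.61 in Wntlow and 10.14, 10.60 and 10.64 in Wntnegative in experiments 7 to 9. The Wntnegative arrays were above all others of their run, and Wnthigh and Wntlow overlapped in experiments 2 to 5. Abcd3 fell by 2.25 in Wnthigh (SE 0.23, adjusted p = 5.81e-07) and fell by 1.72 in Wntlow (SE 0.23, adjusted p = 5.14e-05), and Wnthigh minus Wntlow was -0.53 (adjusted p = 0.0999). Wntlow minus Wntnegative did not pass in experiments 2 to 5 alone (limma, -1.42, adjusted p = 0.0811).

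Abcd4 read 5.31, 5.76 and 5.66 in Wnthigh, 5.71, 6.55 and 6.09 in Wntlow and 6.61, 6.94 and 6.97 in Wntnegative in experiments 2 to 5. It read 4.33, 4.17 and 4.20 in Wnthigh, 4.38, 4.49 and 4.49 in Wntlow and 5.14, 5.13 and 5.19 in Wntnegative in experiments 7 to 9. The Wntnegative arrays were the highest in both runs, and both other groups were at background in experiments 7 to 9. Both differences are therefore lower limits. Abcd4 fell by 1.09 in Wnthigh (SE 0.12, adjusted p = 1.91e-06) and fell by 0.71 in Wntlow (SE 0.12, adjusted p = 0.000426). Wntlow minus Wntnegative did not pass in experiments 2 to 5 alone (limma, -0.72, adjusted p = 0.0975). Wnthigh minus Wntlow was -0.38 (adjusted p = 0.0284), which did not pass without experiment 2, 5, 8 or 9 (adjusted p up to 0.0898). The other measured member, Abcd2, which imports very long-chain fatty acids, was at background in every group and run and differed by 0.70 in Wnthigh minus Wntnegative (SE 0.11, adjusted p = 4.78e-05).

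Of 12 peroxisome partners, 11 were measured. In Wnthigh against Wntnegative 1 rose and 8 fell, in Wntlow against Wntnegative 2 rose and 1 fell, and between Wnthigh and Wntlow 7 were lower and 0 higher in Wnthigh (limma; also 0 at an unadjusted p under 0.05). Their medians were -0.25, 0.04 and -0.29. Pex3, the docking receptor that inserts membrane proteins such as Abcd3 with Pex19, fell by 0.68 in Wnthigh and fell by 0.51 in Wntlow (adjusted p = 6.71e-06 and 0.000378). Pex19 fell by 0.40 in Wnthigh and differed by -0.14 in Wntlow. The beta-oxidation enzyme Hsd17b4 fell by 1.13 in Wnthigh against Wntnegative and fell by 1.52 against Wntlow.

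Of the ribosome-associated members of subfamilies E and F, Abce1 was lowest in Wntnegative and Abcf2 in Wnthigh. Abce1, which splits ribosomes after termination, read 11.61, 11.38 and 11.26 in Wnthigh, 11.69, 11.23 and 11.19 in Wntlow and 11.17, 10.99 and 10.93 in Wntnegative in experiments 2 to 5. It read 9.70, 9.89 and 9.72 in Wnthigh, 9.91, 9.70 and 9.70 in Wntlow and 9.43, 9.55 and 9.22 in Wntnegative in experiments 7 to 9. The Wntnegative arrays were the lowest in both runs. Abce1 rose by 0.38 in Wnthigh (SE 0.09, adjusted p = 0.00289) and by 0.35 in Wntlow (SE 0.09, adjusted p = 0.00784), and its RefSeq model overlaps Anapc10. Wntlow minus Wntnegative passed in neither run alone (limma, adjusted p = 0.223 and 0.058). Wnthigh minus Wntnegative did not pass in experiments 2 to 5 alone (limma, 0.39, adjusted p = 0.107).

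Abcf2 read 9.39, 9.48 and 9.29 in Wnthigh, 10.03, 10.35 and 9.83 in Wntlow and 10.02, 10.12 and 10.26 in Wntnegative in experiments 2 to 5. It read 7.21, 7.65 and 7.32 in Wnthigh, 7.99, 8.24 and 7.99 in Wntlow and 8.29, 8.52 and 7.99 in Wntnegative in experiments 7 to 9. The Wnthigh arrays were the lowest in both runs, and Wntlow and Wntnegative overlapped. Abcf2 fell in Wnthigh by 0.81 against Wntnegative (SE 0.10, adjusted p = 8.23e-06) and fell by 0.68 against Wntlow (SE 0.10, adjusted p = 8.92e-05).

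Abcf3 read 9.71, 9.48 and 9.72 in Wnthigh, 9.54, 9.45 and 9.35 in Wntlow and 9.23, 9.26 and 9.48 in Wntnegative in experiments 2 to 5. It read 8.51, 8.39 and 8.24 in Wnthigh, 8.23, 8.06 and 8.02 in Wntlow and 8.23, 8.23 and 8.06 in Wntnegative in experiments 7 to 9. Wnthigh did not overlap Wntnegative in either run, although their nearest arrays both rounded to 9.48 in the first. Abcf3 rose in Wnthigh by 0.26 against Wntnegative (SE 0.07, adjusted p = 0.00581) and by 0.23 against Wntlow (SE 0.07, adjusted p = 0.0184), which did not pass without experiment 5 or experiment 8 (adjusted p = 0.0858 and 0.0743). Wnthigh minus Wntlow passed in neither run alone (limma, adjusted p = 0.283 and 0.0856). Abcf1, a factor of translation initiation, differed by -0.00, -0.01 and 0.01 in Wnthigh minus Wntnegative, Wntlow minus Wntnegative and Wnthigh minus Wntlow, and passed in none. It carried the same deposited value on 6 of the 9 arrays of experiments 2 to 5 and 7 of the 9 of experiments 7 to 9.

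Of 8 ribosome partners 4 were measured. Etf1, the release factor that acts before Abce1, rose by 0.48 in Wnthigh and 0.34 in Wntlow against Wntnegative. Eif2ak4, the Gcn2 kinase of the amino acid response, fell by 2.97 in Wnthigh and fell by 1.69 in Wntlow. In Wnthigh against Wntnegative 1 of these 4 rose and 1 fell, in Wntlow 2 rose and 1 fell, and between Wnthigh and Wntlow 1 was lower in Wnthigh, with medians of 0.01, 0.12 and -0.11.

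Of the ABC proteins under other symbols, the chloride channel Cftr was the one outside Abca3 with a wide difference. Cftr read 4.90 ± 1.11 in Wnthigh, 6.84 ± 1.34 in Wntlow and 9.05 ± 0.95 in Wntnegative (SD, n = 6). It fell by 4.15 in Wnthigh, a lower limit, and fell by 2.21 in Wntlow against Wntnegative (adjusted p = 1.43e-07 and 0.000327). Tap1 and Tap2, the peptide transporter pair of antigen presentation, differed in opposite directions in Wnthigh against Wntnegative: Tap1 fell by 0.54 and Tap2 rose by 0.41. The potassium channel genes Kcnj8 and Kcnj11, whose products pair with the sulfonylurea receptors Abcc8 and Abcc9, were at background in every group and run, and Kcnj11 differed by 0.50 in Wntlow minus Wntnegative (adjusted p = 0.00303).

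The 27 ABC genes at background lay between 3.66 and 5.44 in experiments 2 to 5 and between 2.90 and 4.58 in experiments 7 to 9. In Wnthigh minus Wntnegative 2 of them were called higher (Abcd2 and Abcg1) and 6 lower (Abca14, Abcb1a, Abcb1b, Abcc6, Abcg5 and Abcg8), with differences of all 27 between -0.26 and 0.70. In Wntlow minus Wntnegative 2 were called higher (Abca4 and Abca13) and 4 lower (Abca14, Abcc6, Abcg5 and Abcg8), between -0.21 and 0.27. In Wnthigh minus Wntlow 2 were called higher (Abcd2 and Abcg1) and 3 lower (Abca4, Abca13 and Abcc8), between -0.35 and 0.50. Of these 19 calls 10 did not pass without at least 1 of the experiments, and 7 did not with the experiment as a fixed block. The same deposited value stood on at least 5 of the 9 arrays of a run for 17 of the 27 genes in experiments 2 to 5 and 21 in experiments 7 to 9, against 2 and 3 of the 18 genes above background in both runs.

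The order of the group means was the same in both runs for 12 of the 18 genes above background. It was Wnthigh, Wntlow, Wntnegative for Abca2, Abcb6, Abcb10 and Abcc5, and Wntnegative, Wntlow, Wnthigh for Abca17, Abcd3, Abcd4 and Abcf2. It was Wntlow, Wntnegative, Wnthigh for Abca7 and Abcc3, Wntlow, Wnthigh, Wntnegative for Abcc1, and Wnthigh, Wntnegative, Wntlow for Abca1. Of neighbouring groups in these orders, Wnthigh and Wntlow did not differ past the threshold for Abcb6, Abcb10, Abcc1, Abca17 and Abcd3, nor did Wntlow and Wntnegative for Abca1, Abca7, Abcb10, Abcc5 and Abcf2. The order differed between the runs for Abcb8, Abcc4, Abcc10, Abce1, Abcf1 and Abcf3.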

How the data were processed

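RNA of 18 sorted cell pools was hybridised to Affymetrix whole-transcript arrays with the WT Pico kit, per the labels' protocols. The deposited table holds log2 values that the authors made with RMA, per the submitters' processing notes, which give no version. The annotation build is not given in the sources used here. Of 72688 probe sets, 6732 were controls, 30604 had 1 gene symbol (827 updated), 2146 several and 33206 none. Where a gene had several (355 genes), the probe set with the highest mean over 18 arrays was taken, which left 30142 genes.

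The deposited values were fitted without further scaling in limma 3.58.1 (R 4.3.3), with group and run (as told from the decimals of the deposited values) as terms, 3 groups in 1 fit and 2-sided tests, with the Benjamini-Hochberg adjustment taken over all 30142 genes and a threshold of 0.05. Differences against a group at background are lower limits. The fit was tested on simulated data. Experiment numbers are shared between groups, and the labels do not say what arrays of 1 number share: in 16 same-numbered pairs the deviations from group means correlated at 0.486 to 0.802, and those from means of group and run at 0.00339 to 0.516, above 0.1 in 12. The main fit had no experiment block.

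Per-array values are given for the 6 highest and the 6 lowest called differences in each comparison (same sign in both runs, higher group above background in both) and always for Abca1, Abcg1, Abcb1a, Abcb1b, Abcc1 and Abcg2. The genes, lists and rule were chosen with earlier results of these data known. Alternatives covered the run term, blocks, runs, scaling, dim genes, probe sets, variance, weights and each experiment left out. Precision is limited by the number of arrays. Gene symbols and start regions were taken from RefSeq GRCm38.p6.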

Additional observations from a re-analysis of the deposited data

Results flagged for a closer look

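In 54 sets of 6 arrays (18 genes in 3 groups), after the mean of each run was taken off, 4 held an array whose gap to the nearest other array exceeded 0.625 of the range of the set. For normally spread values chance gives about 1 such set in 20. This rate does not hold for genes at background, where several arrays carried the same deposited value. Abcd3 in the Wntlow array of experiment 4 lay 0.72 above its run mean, with a deposited value of 11.90, while the other Wntlow arrays lay between 0.41 and 0.90 below theirs (-0.41 to -0.90). The other 3 concern genes at background. Abcb1b in the Wntlow array of experiment 3 lay at 0.0753 (deposited 4.27), the others between 0.00249 and 0.00513. Abcg2 in the Wnthigh array of experiment 4 lay at -0.0568 (deposited 4.06), the others between -0.0254 and -0.00968. Abcg2 in the Wntnegative array of experiment 5 lay at 0.235 (deposited 4.35), the others between -0.0254 and 0.0404.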

How the results depend on the processing

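No call reversed under any alternative. Without run as a term, the counts of ABC genes higher and lower were 2 and 3 in Wnthigh against Wntnegative, 3 and 1 in Wntlow against Wntnegative, and 0 and 1 in Wnthigh against Wntlow (limma; at an unadjusted p under 0.05 these were 1 and 2), and the count over all genes went from 12142 to 2824, from 7697 to 1061 and from 8402 to 1351. On experiments 2 to 5 alone, 9 were lower in Wnthigh against Wntnegative, 2 higher and 1 lower in Wntlow, and 4 lower in Wnthigh against Wntlow. Of all genes, 29.9%, 8.4% and 10.9% were called there in these comparisons, against 40.3%, 25.5% and 27.9% in the main fit. On experiments 7 to 9 alone, 7 were lower in Wnthigh against Wntnegative, and 4 higher and 3 lower in Wntlow. Of all genes, 26.2% and 14.8% were called there in these comparisons. With dim genes left out, 7 and 3 were lower in Wnthigh and in Wntlow against Wntnegative, since fewer genes were tested. These were 18 of the ABC genes and 12290 genes in all, of which 43% and 25.1% were lower. With the experiment as a fixed replicate block, 4 were lower in Wntlow against Wntnegative, where 13.6% of all genes were lower. This block ended 9 of the 56 calls, 7 of them of genes at background in every group. It ended none of the 28 that the naming rule chose for their size. The random block ended none of the 56. The causes of the other changes were not tested. Leaving out each experiment in turn gave 11 to 12 higher and 10 to 14 lower in Wnthigh against Wntnegative, 5 to 8 and 4 to 7 in Wntlow against Wntnegative, and 6 to 8 and 6 to 11 in Wnthigh against Wntlow. Of all genes, 35.7% to 38.5%, 20.1% to 25.4% and 23.8% to 28.5% were then called in these comparisons. Of the 56 calls 40 passed without each experiment, as did 30 of the 35 calls of genes with per-array values and 26 of the 28 chosen for their size. Of these 28, 17 passed on experiments 2 to 5 alone and 24 on experiments 7 to 9 alone. All 28 passed with arrays centred on their medians and with quantile normalization. Without the Wntlow arrays of experiments 3 and 4, chosen after seeing the data, 27 of the 28 passed and Abca2 in Wntlow against Wntnegative did not (adjusted p = 0.0574). With 6 pools a group and no probe-level data used here, differences of genes near background cannot be sized.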

Other observations

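Several ABC genes are neighbours in RefSeq order with no other protein-coding gene between them. Chromosome 11 holds the 5 genes Abca8b, Abca8a, Abca9, Abca6 and Abca5, of which Abca5 was above background in experiments 2 to 5 and the other 4 in neither run. Chromosome 7 holds Abca14, Abca15 and Abca16, chromosome 5 holds Abcb1a, Abcb1b and Abcb4, and chromosome 17 holds the overlapping pair Abcg5 and Abcg8, and all of these were at background in every group and run. The pair Abca17 and Abca3, also on chromosome 17, was the only one of these neighbourhoods with both genes above background in each run. Members of the first 3 neighbourhoods have related genes beside them, so any probes shared between these genes may make their values uncertain.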
